A study of Mus musculus with 37 samples.

Results

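The Zscan4 family was examined here across oocytes and early embryos of the mouse. Its members were chosen by symbol: the 6 genes Zscan4a, Zscan4b, Zscan4c, Zscan4d, Zscan4e and Zscan4f, of 55401 genes listed in the deposited expression table. The 3 further copies named Zscan4-ps1, Zscan4-ps2 and Zscan4-ps3 are described beside them, because all 9 share long stretches of sequence.

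Zscan4 genes encode nuclear proteins with a SCAN domain, through which such proteins pair with each other, and zinc fingers that bind DNA. They are among the best known genes of zygotic genome activation in the mouse, being transcribed in a short burst at the 2-cell stage and silenced again soon after. In mouse embryonic stem cells the same genes are switched on now and then in a small share of cells, and there they have been linked to telomere lengthening and to loss of DNA methylation. The homeobox factor Dux, called Duxf3 in this table, is the best known direct activator of the cluster.

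The study removed Bap1 from oocytes. BAP1 is the deubiquitinase that takes ubiquitin off histone H2A lysine 119, a mark placed by Polycomb repressive complex 1. Control females carried Bap1flox/flox alone, and knockout females carried Bap1flox/flox together with Gdf9-iCre, whose Gdf9 promoter drives recombination in growing oocytes. Both were represented as fully grown oocytes (FGO), eggs arrested in metaphase of meiosis II (MII), and late 1-cell (L1C), early 2-cell (E2C) and late 2-cell (L2C) embryos, the embryos having B6 fathers. Knockout embryos therefore inherited a deleted maternal Bap1 allele and a wild type paternal one. Each of these 10 groups had 2 control or 3 knockout libraries, except that E2C had 3 of each, which gives 26 total RNA libraries. A further 11 poly(A) libraries came from epiblast, visceral endoderm and extraembryonic ectoderm dissected at embryonic day 6.5 from embryos with PWK fathers. The labels do not say whether replicates came from separate females or collections, so all p-values measure the spread between these libraries, which may be technical.

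Bap1 itself was measured at 16.3 to 29.9 FPKM in the control libraries of the 5 early stages and at 3.76 to 11.7 FPKM in the knockout libraries, with no overlap within any stage. FPKM is the number of fragments scaled to gene length and to the size of the library, so it is already a level per length. The values summed to between 300668 and 430784 FPKM per total RNA library, read depth cannot be read from them, and 10353 to 11942 genes reached 1 FPKM. The 8 oocyte markers were all detected at the 5 early stages. Markers of cumulus and granulosa cells summed to at most 11.1 FPKM and sperm markers to at most 6.71 FPKM. The median within-group spread (SD on the log2 scale) was 0.260 in E2C against 0.116 to 0.202 at the other 4 stages, and E2C knockout replicate 2 was the lowest of the E2C knockout libraries for every Zscan4 copy.

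All 9 copies lie on chromosome 7 (GRCm38, GENCODE M21 annotation) within 820 kb. In order they are Zscan4a (chr7:10794242-10799057), Zscan4b (chr7:10900740-10905050), Zscan4c (chr7:11005745-11010547), Zscan4-ps1 (chr7:11065139-11069691), Zscan4d (chr7:11161374-11166159), Zscan4e (chr7:11306378-11310682), Zscan4f (chr7:11397915-11402318), Zscan4-ps2 (chr7:11514310-11519111) and Zscan4-ps3 (chr7:11609308-11614112). Zscan4c, Zscan4f, Zscan4-ps2 and Zscan4-ps3 are on the plus strand and the other 5 on the minus strand. The annotation runs against the names in part: Zscan4a is listed as an unprocessed pseudogene, whereas the 3 copies with ps in their names are listed as protein coding.

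The transcripts were 96.6% to 99.8% identical between copies. Of the 50-base words in each member's transcript, 49.6% (Zscan4d), 63.6% (Zscan4a), 85.5% (Zscan4c), 86.8% (Zscan4f), 89% (Zscan4e) and 90.1% (Zscan4b) also occurred in another gene, in every case another Zscan4 copy. Short fragments from such words cannot be assigned to 1 copy, and how the authors' counting divided them is not given in the sources used here. Values of single copies are for that reason uncertain. Zscan4b and Zscan4e, with the largest shares of such words, were 99.7% identical to each other. Zscan4f was as close to other copies, 99.8% identical to Zscan4-ps2 and 99.6% to Zscan4c. The family sum, the FPKM of the 6 members added up, depends less on that division than single copies do. It is not free of it, because FPKM divide by gene length, which runs from 1793 bases (Zscan4e) to 2279 (Zscan4a), and because fragments may have been passed to or from the 3 ps copies.

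The near identity extends to the start sites, which is why the promoters are shown. RefSeq (GRCm38.p6) promoter windows of 250 bases before to 50 bases after the start were at hand for Zscan4b, Zscan4c, Zscan4d and Zscan4f, and were 95.3% to 99.3% identical in pairs. Printed 5′ to 3′ on the strand of the gene, with capitals marking the words TATAAA (a core promoter element) and TGATTCAA (the first part of the Dux motif), 3 of the windows read:
Zscan4c (chr7:11005495-11005794, plus strand): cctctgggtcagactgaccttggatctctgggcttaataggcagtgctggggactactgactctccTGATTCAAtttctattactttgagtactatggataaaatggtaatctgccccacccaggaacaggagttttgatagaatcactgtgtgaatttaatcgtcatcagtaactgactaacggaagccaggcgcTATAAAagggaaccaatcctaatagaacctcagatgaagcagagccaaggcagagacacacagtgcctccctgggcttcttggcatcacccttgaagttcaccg
Zscan4d (chr7:11166099-11166398, minus strand): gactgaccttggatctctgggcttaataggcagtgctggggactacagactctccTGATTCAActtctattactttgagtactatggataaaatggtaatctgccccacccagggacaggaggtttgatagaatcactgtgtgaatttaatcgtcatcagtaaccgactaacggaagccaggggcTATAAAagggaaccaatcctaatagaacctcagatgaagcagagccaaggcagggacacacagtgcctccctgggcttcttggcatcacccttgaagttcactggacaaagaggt
Zscan4f (chr7:11397665-11397964, plus strand): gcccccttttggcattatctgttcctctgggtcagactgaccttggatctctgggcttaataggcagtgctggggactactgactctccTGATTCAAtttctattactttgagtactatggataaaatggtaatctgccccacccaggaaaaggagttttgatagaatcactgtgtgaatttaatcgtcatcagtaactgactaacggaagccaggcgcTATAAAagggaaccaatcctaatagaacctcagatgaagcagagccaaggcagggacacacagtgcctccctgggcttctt
Both strands were searched. TATAAA was found in 4 of the 4 windows, with its first base at position -31 from the start in Zscan4b and Zscan4f, at -54 in Zscan4c and at -65 in Zscan4d, against 13.6% of all 32851 promoters. TGATTCAA was found in 3 of 4, at -184 in Zscan4c, -195 in Zscan4d and -161 in Zscan4f, against 0.581% of all promoters, and not in Zscan4b. The core Dux word GATTNAATC was in 0 of 4 windows and in 0.268% of all promoters. The word GGATTA, read by Obox and related homeobox proteins, was in 0 of 4 windows and in 7.06% of all promoters. The Zscan4 word TGCACAC was in 0 of 4 windows and in 4.4% of all promoters. None of these words overlaps with another in the windows. These are matches of letters in a window and carry no statement about binding.

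In controls the family was high in E2C and much lower again in L2C. The family sum was 4.31 and 1.35 FPKM in the 2 control FGO libraries, 1.34 and 3.37 FPKM in MII, 3.18 and 3.13 FPKM in L1C, then 311, 246 and 171 FPKM in E2C, and 45.0 and 49.1 FPKM in L2C. The E2C libraries did not overlap with those of any other control stage. From L1C to E2C the mean sum was 77.0-fold higher, and from E2C to L2C it was 5.16-fold lower.

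Embryos from knockout oocytes also carried Zscan4 RNA by E2C, and it was not lower in L2C. Their family sum was 2.03, 2.39 and 2.58 FPKM in FGO, 2.18, 3.89 and 2.62 FPKM in MII, 7.16, 3.57 and 2.62 FPKM in L1C, 209, 56.7 and 165 FPKM in E2C, and 235, 178 and 191 FPKM in L2C. All 3 L2C knockout libraries lay above both L2C control libraries, with a mean 4.28-fold higher, and all 3 fell within the range of the E2C control libraries. At E2C the knockout libraries overlapped with the controls, with a mean 0.590 times theirs. Ordered by mean, the groups ran from control E2C (243 ± 70.1 FPKM, SD, n = 3) through knockout L2C (201 ± 29.6, n = 3), knockout E2C (143 ± 78.2, n = 3) and control L2C (47.1 ± 2.88, n = 2) to the 6 oocyte and 1-cell groups at 2.34 to 4.45 FPKM. The first 3 of these overlapped in range, as did neighbours among the last 6, while control L2C overlapped with no other group. In pooled embryos, fewer cells with Zscan4 RNA and less Zscan4 RNA per cell cannot be told apart.

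**Figure D1:**
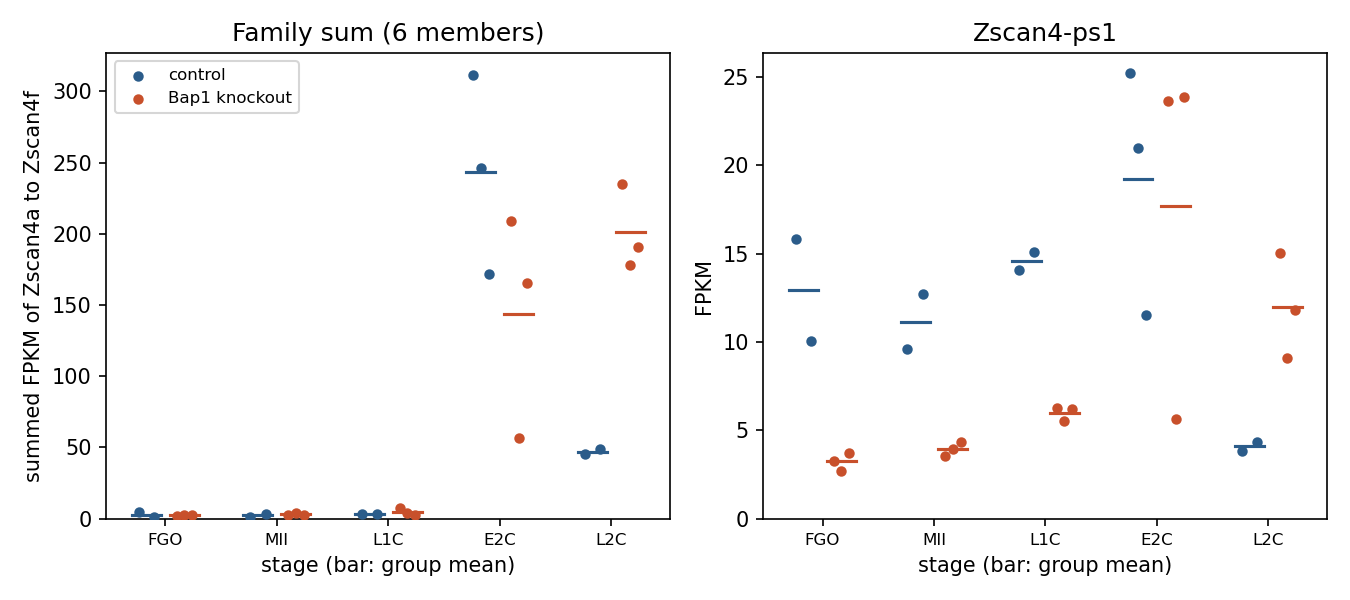
Summed FPKM of Zscan4a to Zscan4f (left) and FPKM of Zscan4-ps1 (right) in each total RNA library by stage, points for libraries and bars for group means, control in blue and knockout in orange. The family sum is near 0 until L1C, and in L2C the knockout libraries (178 to 235 FPKM) lie above the controls (45.0 and 49.1 FPKM), while Zscan4-ps1 is already present in control FGO at 15.8 and 10.0 FPKM.

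The activation between L1C and E2C involved every member in both genotypes. In controls the 6 members were higher in E2C by 4.16 (Zscan4d) to 5.13 (Zscan4f) on the log2(FPKM + 1) scale, and 6 of 6 passed the test (limma, Benjamini-Hochberg adjusted p from 2.43e-06 to 5.05e-05), against 17.6% of all 12770 genes tested that were called higher. In knockouts the differences were 2.94 (Zscan4d) to 4.27 (Zscan4f), and again 6 of 6 passed, against 16.8% of genes called higher. The member medians were 4.82 and 3.96, beside -0.17 and -0.14 over all genes. Zscan4a and Zscan4e were listed at 0 in both control L1C libraries. Zscan4a, Zscan4b, Zscan4e and Zscan4f were under 1 FPKM in every L1C library. They met the minimum for a test, 1 FPKM in 2 libraries, only through E2C. The direction of their difference was thus set by that minimum, and their calls are a description. Whether the rise differed between genotypes was tested as the change of the knockout effect from L1C to E2C. It was negative for all 6 members, -0.44 to -1.34 with a median of -0.98, and 0 of 6 passed with limma, against 0.337% of all genes called. Zscan4c and Zscan4d were the 2 with an unadjusted p under 0.05. With a pseudocount of 0.1 in place of 1 the sign turned for Zscan4b (0.61) and Zscan4f (0.020).

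Before the 2-cell stage only traces of the members were seen. Zscan4d was the highest, at 0.708 to 4.74 FPKM over the 15 oocyte, egg and L1C libraries, and Zscan4c reached 0.279 to 1.76 FPKM. The other 4 stayed under 1 FPKM in all of these libraries. Only Zscan4d in FGO, and Zscan4c and Zscan4d in MII and L1C, passed the minimum of 1 FPKM in 2 libraries needed for a test, and none passed it between genotypes (0 of 1, 0 of 2 and 0 of 2, against 8.34%, 12% and 14.9% of genes called, limma, 0 with an unadjusted p under 0.05). Zscan4d was 1.82 and 1.80 FPKM in control L1C and 4.74, 2.09 and 1.89 FPKM in knockout L1C, which does not overlap (26.3% of genes did so in the higher direction). The gap between the nearest libraries was small beside the spread of the knockout libraries.

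The E2C levels of the members were 13.5 to 63.8 FPKM in controls and 5.91 to 41.3 FPKM in knockouts. Zscan4f, in controls the highest on average, measured 63.8, 60.3 and 33.9 FPKM in control and 40.1, 6.46 and 41.3 FPKM in knockout E2C. Zscan4c measured 60.7, 43.1 and 46.4 FPKM in control and 39.2, 13.6 and 31.9 FPKM in knockout E2C. Zscan4c was the only member whose E2C groups did not overlap, against 16.3% of all genes in that direction.

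All 6 knockout minus control differences in E2C were negative, from -0.43 (Zscan4a) to -1.14 (Zscan4f) with a median of -0.90, beside 0.03 over all genes. With the stage's own spread, limma called 0 of 6, against 10.1% of 11780 genes, and 2 of 6 (Zscan4c and Zscan4d) had an unadjusted p under 0.05. The smallest adjusted p was 0.0866 for Zscan4d, with a difference of -0.82 and a 95% interval of -1.43 to -0.21. This negative call depends on the fit: when all 26 libraries shared 1 estimate of the spread, 5 of 6 were called lower, all but Zscan4a, and so were 14.9% of 15184 genes, against 5.87% lower with the stage's own spread. Without knockout replicate 1 Zscan4d was called (-1.07, adjusted p 0.0455). Without knockout replicate 2, the library with 56.7 FPKM for the family, 0 of 6 were called, the difference of the log2 family sum went from -0.91 to -0.35, and that of Zscan4a changed sign to 0.29.

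**Figure D2:**
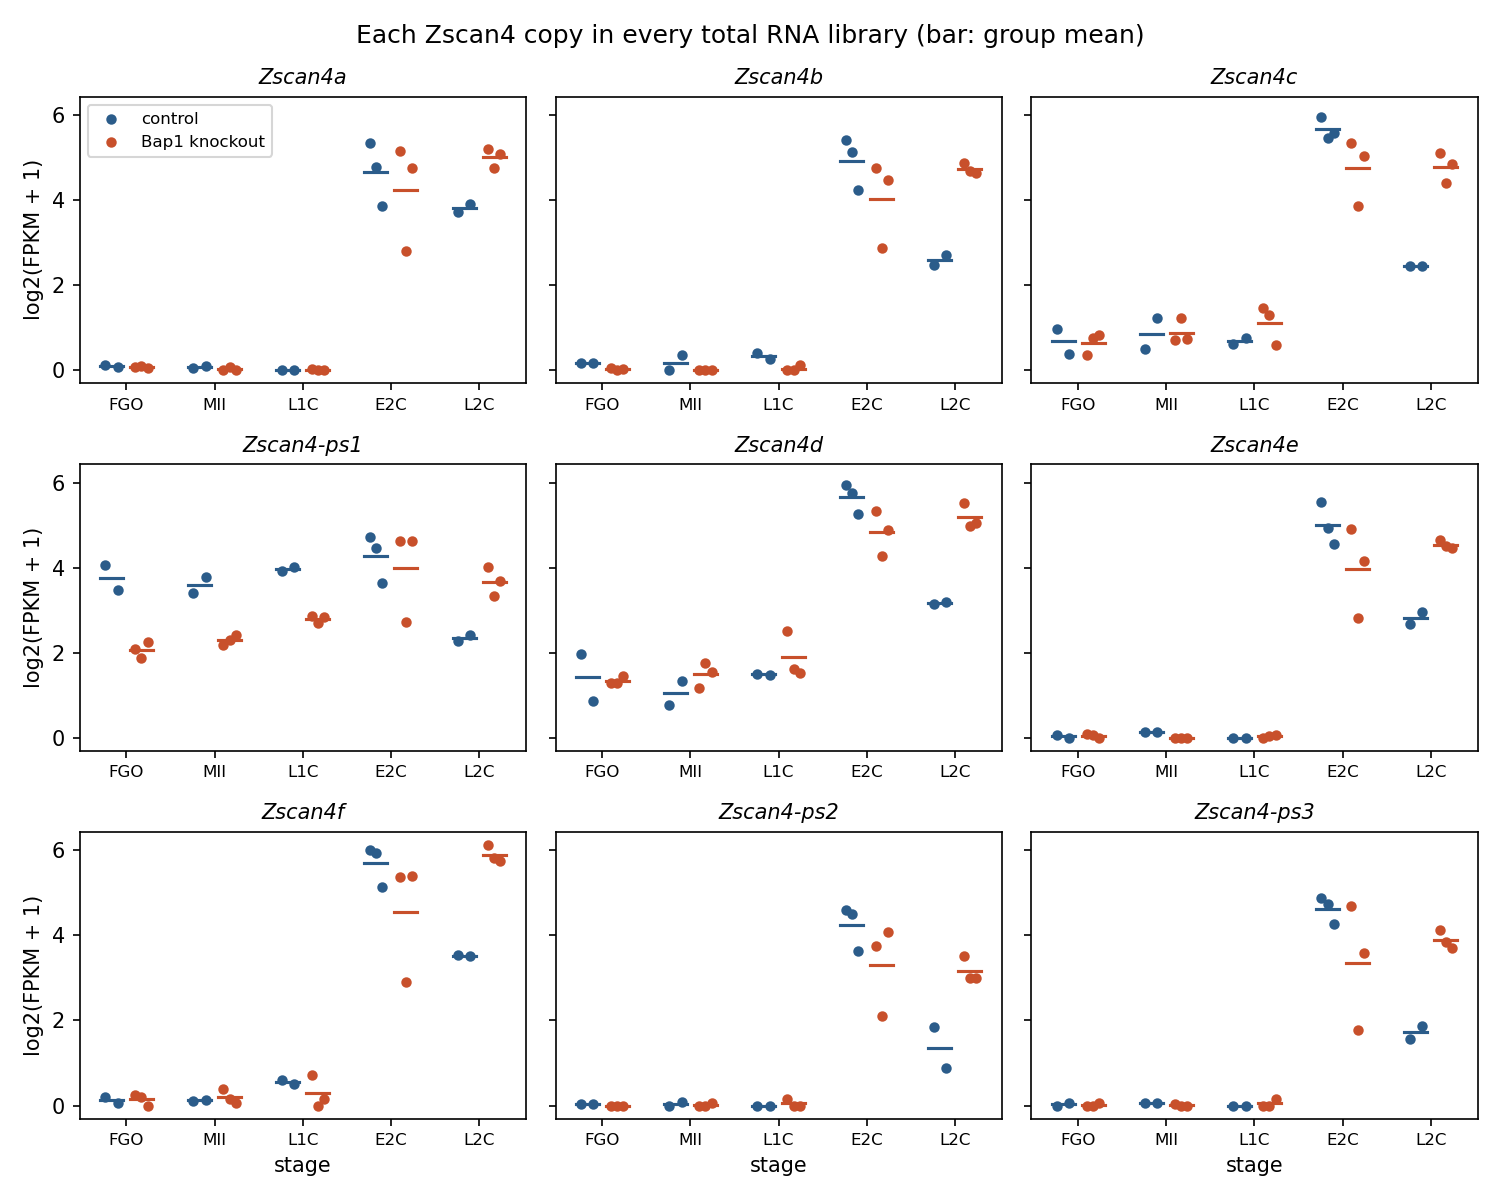
Level of each of the 9 Zscan4 copies as log2(FPKM + 1) in every total RNA library by stage, 1 panel per copy in order along the chromosome, points for libraries and bars for group means. The 6 members and Zscan4-ps2 and Zscan4-ps3 appear at E2C, and in L2C all 3 knockout points lie above both control points in each panel, whereas Zscan4-ps1 has control points above knockout points in FGO, MII and L1C.

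By L2C every member was higher in the knockout. Zscan4f was 10.7 and 10.3 FPKM in the controls and 68.8, 55.0 and 53.0 FPKM in the knockouts, a difference of 2.37 ± 0.14 (SE) on the log2 scale with an adjusted p of 6.29e-05 (limma). Zscan4c was 4.49 and 4.45 FPKM in the controls and 33.5, 20.0 and 27.9 FPKM in the knockouts (2.33 ± 0.21, adjusted p 0.000242, limma). For both genes the lowest knockout library lay well above the highest control library. Zscan4b was 4.52 and 5.54 FPKM in the controls and 28.1, 24.8 and 23.7 FPKM in the knockouts (2.14 ± 0.15). Zscan4d was 7.91 and 8.13 FPKM in the controls and 44.8, 30.8 and 32.3 FPKM in the knockouts (2.02 ± 0.17). These 2 genes also showed no overlap, with mean FPKM 5.07-fold and 4.48-fold higher.

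Zscan4e and Zscan4a differed least. Zscan4e was 5.39 and 6.78 FPKM in the controls and 24.1, 21.7 and 21.1 FPKM in the knockouts (1.72 ± 0.15). Zscan4a was 12.04 and 13.9 FPKM in the controls and 35.4, 26.04 and 32.8 FPKM in the knockouts (1.21 ± 0.15, 2.43-fold on the FPKM scale). In the 5 L2C libraries 6 of 6 members were called higher with adjusted p of at most 0.000866, against 19% of 12718 genes called higher, and 6 of 6 did not overlap, against 31.6% of genes. The member median was 2.08 beside 0.03 over all genes, and 3.92% of genes had a difference above that of Zscan4a, the lowest of the members. All 6 were called higher in each of the 15 alternative fits of this comparison, those without 1 library included.

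Most markers of maternal RNA moved with this comparison. The 8 oocyte markers summed to 487 and 511 FPKM in control L2C and to 800 to 927 FPKM in knockout L2C. Of the 8, 6 were called higher, against 19% of all genes. Among them were Ooep (1.37 ± 0.12), of the subcortical maternal complex, and Gdf9 (1.16 ± 0.18), an oocyte growth factor. Zp1 overlapped (0.27 ± 0.18). Zp3 went the other way, lower without overlap but not called (-0.48 ± 0.17, adjusted p 0.0579, limma). In E2C the 8 markers summed to 985 to 1287 FPKM in controls and 923 to 1199 FPKM in knockouts. None of the 8 was at 0 in every library of any of these groups. The family sum of Zscan4 before E2C was only 1.34 to 7.16 FPKM in either genotype. The part of the maternal RNA level in the L2C difference of the members was not tested.

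The same contrast was seen as a change over time within each genotype. From E2C to L2C, 5 of 6 members fell in controls, against 23.9% of 14051 genes called lower. The log2 difference was -3.21 ± 0.35 for Zscan4c, an 11.2-fold lower mean FPKM, and -2.48 to -2.17 for Zscan4b, Zscan4d, Zscan4e and Zscan4f. Zscan4a differed by -0.86 ± 0.57 (adjusted p 0.219, limma), with 13.5 to 39.3 FPKM in control E2C and 12.04 and 13.9 FPKM in control L2C, which overlap. It was called when knockout E2C replicate 2, which only adds to the estimate of the spread here, was left out (adjusted p 0.0452, limma). In knockouts the 6 differences were 0.04 (Zscan4c) to 1.34 (Zscan4f), with a median of 0.64 beside 0.09 over all genes. Zscan4f alone was called, at an adjusted p of 0.0491 (limma), against 29.3% of genes called higher. That call was lost without any 1 of 8 libraries and under 7 of the other alternatives, and without knockout E2C replicate 2 the difference fell to 0.51.

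**Figure D3:**
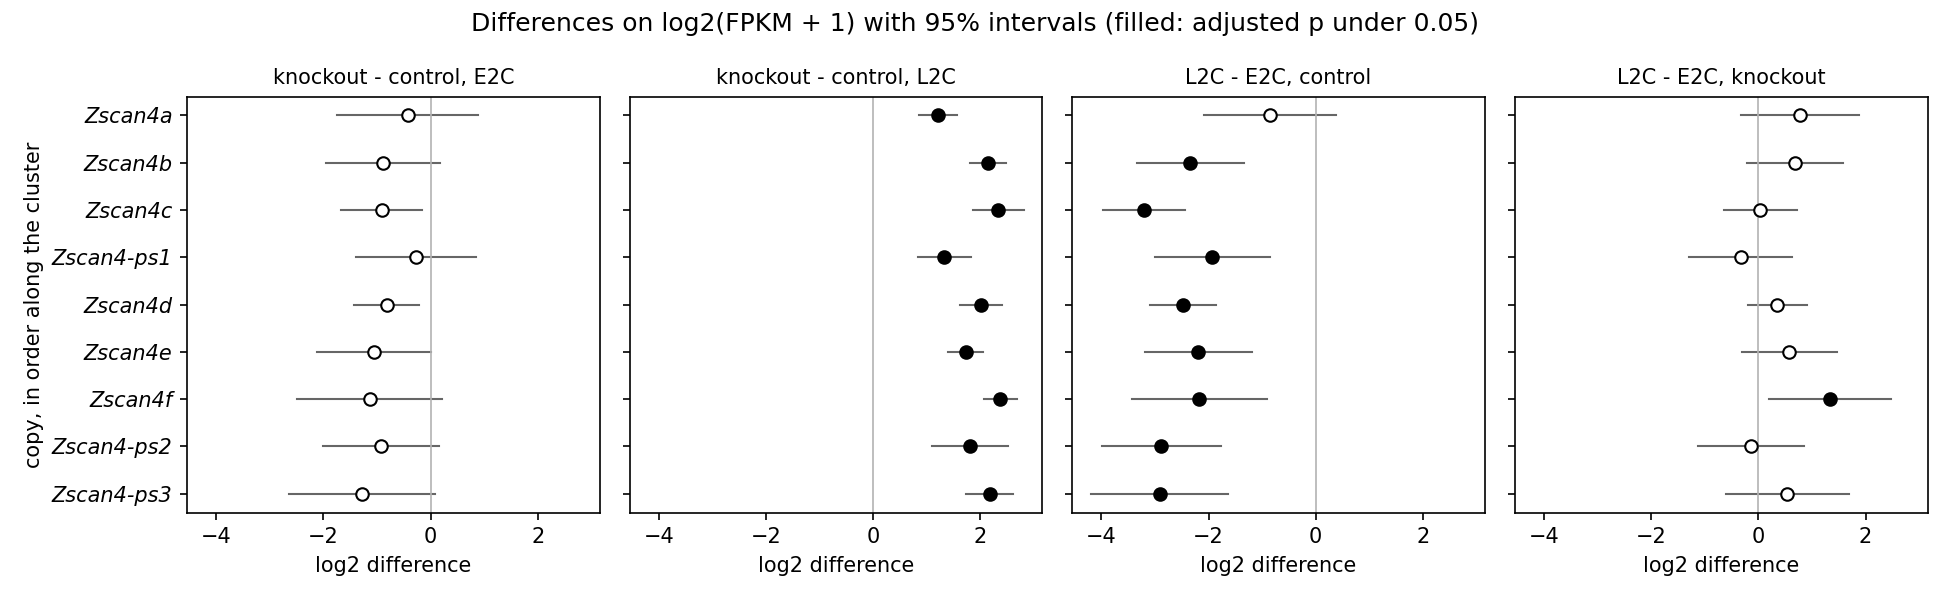
Differences of each Zscan4 copy on the log2(FPKM + 1) scale (x axis) with 95% intervals from limma, in order along the cluster, for knockout minus control in E2C and L2C and for L2C minus E2C in each genotype. Filled points have an adjusted p under 0.05: none in the first panel, all 9 copies in the second, all but Zscan4a in the third and Zscan4f in the last.

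The change of the knockout effect from E2C to L2C was tested directly. It was 3.51 ± 0.78 for Zscan4f, 3.25 ± 0.47 for Zscan4c, 3.03 ± 0.62 for Zscan4b, 2.83 ± 0.38 for Zscan4d and 2.78 ± 0.61 for Zscan4e, all with adjusted p of at most 0.0102 (limma). Zscan4a, at 1.64 ± 0.76, had an adjusted p of 0.167, and of 0.0387 when all 26 libraries shared 1 spread. Without the filter on low values Zscan4e and Zscan4f were not called (adjusted p 0.0556 and 0.0587). Thus 5 of 6 members were called, against 8.81% of all genes in that direction, with a median of 2.93 beside 0.04 over all genes. This comparison, both genotype comparisons and the changes over time use the same E2C and L2C libraries and are not independent of each other.

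Knockout L2C was also set against control E2C, the peak of the controls. The differences were -0.87 (Zscan4c) to 0.35 (Zscan4a), with a median of -0.33 beside 0.13 over all genes. Zscan4c alone was called, lower (adjusted p 0.0365, 95% interval -1.56 to -0.19, limma), against 18.3% of genes called lower. The call of Zscan4c was lost without control E2C replicate 1 or 3 or knockout L2C replicate 2 or 3 (adjusted p 0.12, 0.0611, 0.135 and 0.069). For the other 5 members the 95% intervals included 0 and were wide, such as -0.93 to 1.33 for Zscan4f. The data thus allow differences anywhere inside these intervals, and equal levels cannot be taken from them.

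The members did not keep fixed proportions. In control E2C Zscan4f, Zscan4c and Zscan4d made up 21.6%, 21.4% and 20.9% of the family sum and Zscan4a 10.4%. In control L2C Zscan4a had the highest share, 27.5% (26.8% and 28.2%), above all 3 E2C controls (7.87% to 12.6%), and Zscan4c the lowest, 9.52%, below all 3 E2C controls (17.5% to 27.1%). Zscan4a was thus the most abundant member in control L2C, where the family as a whole was 5.16-fold lower.

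Knockout L2C had another order. Zscan4f led with 29.3% of the family sum (27.8% to 30.9%), above both control L2C libraries (21.1% and 23.7%), while Zscan4a had 15.6% (14.6% to 17.2%), below both controls. The share of Zscan4c in knockout L2C, 11.2% to 14.6%, lay below all control E2C libraries and above both control L2C libraries (9.07% and 9.97%). Knockout E2C replicate 2 had an unusual makeup as well as a low sum, with 32.4% from Zscan4d and 11.4% from Zscan4f. Shares of FPKM rest on how shared fragments were divided and were not tested.

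**Figure D4:**
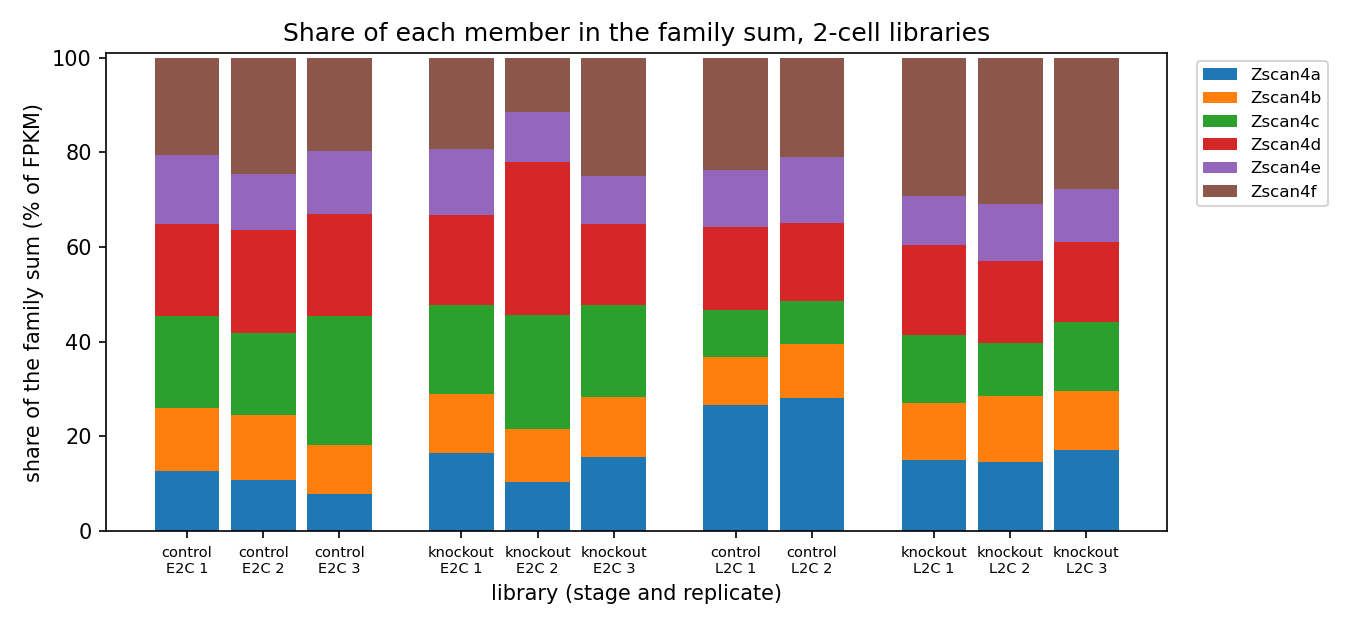
Share of each member in the family sum (y axis, percent of summed FPKM) in each of the 11 2-cell libraries, stacked bars by library. The Zscan4a segment is widest in the 2 control L2C libraries (26.8% and 28.2%), and the Zscan4f segment is widest in the knockout L2C libraries (27.8% to 30.9%).

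Among the 3 ps copies, Zscan4-ps2 and Zscan4-ps3 were near 0 before E2C like most members, whereas Zscan4-ps1 was not. In L2C Zscan4-ps3 was 1.95 and 2.66 FPKM in controls and 16.5, 13.3 and 12.01 FPKM in knockouts (2.17 ± 0.19). Zscan4-ps2 was 2.59 and 0.840 FPKM in controls and 10.4, 7.04 and 6.99 FPKM in knockouts (1.81 ± 0.31). Neither exceeded 0.113 FPKM before E2C.

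Zscan4-ps1 was the copy with RNA in oocytes, and there it was lower in the knockout. In FGO it was 15.8 and 10.0 FPKM in controls and 3.27, 2.6999 and 3.73 FPKM in knockouts (-1.69 ± 0.20, adjusted p 0.00709, limma). In MII it was 9.57 and 12.7 FPKM against 3.53, 3.93 and 4.31 FPKM (-1.29, adjusted p 0.00307, limma), and in L1C 14.0 and 15.1 FPKM against 6.26, 5.502 and 6.21 FPKM (-1.16, adjusted p 0.0011, limma). The groups did not overlap at any of these 3 stages, against 25.9%, 22.9% and 23.3% of genes in that direction. The FGO call was lost without control replicate 1 or 2 (adjusted p 0.0716 and 0.0531), and the MII and L1C calls when all 26 libraries shared 1 spread (0.0571 and 0.0811). The 10 markers of cumulus and granulosa cells, of which only 2 reached 1 FPKM, had lower sums in the knockout at the same stages. They summed to 10.6 and 11.1 FPKM in control FGO and 5.40 to 6.77 FPKM in knockout FGO, to 7.30 and 8.46 against 4.38 to 4.80 FPKM in MII, and to 6.72 and 8.31 against 3.75 to 4.55 FPKM in L1C. At each of these stages 1 of the 2 markers tested was called lower, against 8.34%, 12% and 14.9% of all genes called in either direction. Of the 10, 2 to 5 were at 0 in every library of a group. In E2C the 2 tested were Cyp19a1, called lower (-1.05 ± 0.22), and Col4a1, which overlapped (-0.04 ± 0.25). The part of these markers in the Zscan4-ps1 result was not tested.

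In L2C the difference of Zscan4-ps1 turned positive, like that of the members. In controls Zscan4-ps1 fell from E2C to L2C (-1.93 ± 0.49, adjusted p 0.00545, limma). In E2C it was 25.2, 20.97 and 11.5 FPKM in controls and 23.6, 5.64 and 23.9 FPKM in knockouts, overlapping (-0.28 ± 0.49, adjusted p 0.759, limma). In L2C it was 3.82 and 4.35 FPKM in controls and 15.1, 9.06 and 11.8 FPKM in knockouts (1.33 ± 0.21, adjusted p 0.00226, limma). Zscan4-ps1 shares 48.4% of its words with other copies, and its part in the trace levels of Zscan4c and Zscan4d in oocytes was not tested. Adding the 3 ps copies to the sum turned the log2 difference between genotypes from -0.09 to -1.31 in FGO, from 0.26 to -0.88 in MII and from 0.30 to -0.72 in L1C, and left that of L2C at 2.06.

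No member was detected above 0.112 FPKM at embryonic day 6.5, by which time the family is normally silent. Zscan4b, Zscan4c and Zscan4f were listed at 0 in all 11 libraries. Zscan4e reached 0.112 FPKM in knockout epiblast replicate 1 and 0.0815 FPKM in control epiblast replicate 1, and Zscan4d 0.0966 FPKM in the single control extraembryonic ectoderm library. With such traces no comparison between genotypes was made. These embryos had Bap1 at 14.0 to 33.8 FPKM in both genotypes.

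Genes outside the family with the most similar course over the 26 libraries were sought by Pearson correlation with the log2 family sum, among 8148 genes. The 10 highest were Usp17la (0.980), Pramef6 (0.979), Usp17le (0.979), Usp17lc (0.976), Zfp353-ps (0.975), Kdm4dl (0.973), Zfp352 (0.972), BC080695 (0.970), Ttc30b (0.969) and Pramef25 (0.969). Usp17l genes encode deubiquitinase-like proteins of the DUB family, and Zfp352 is a zinc finger gene widely used as a marker of the 2-cell state. The 26 points share their libraries and the step between L1C and E2C. Usp17l and Pramef genes have near-identical copies, so their single values are as uncertain as those of Zscan4. Ranked over the 11 2-cell libraries alone, 0 of the 10 stayed among the first 10, and by Spearman correlation 3 did.

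These 10 genes were chosen with the libraries compared, so their differences are given as a description. In L2C all 10 were higher in the knockout, by 0.94 (Kdm4dl) to 2.61 (Zfp353-ps). In E2C they split: Usp17la (-0.13 ± 0.29), Pramef6 (0.06 ± 0.41) and Usp17le (0.34 ± 0.25) were near the controls, whereas Zfp352 (-1.50 ± 0.29), Ttc30b (-1.44 ± 0.24) and BC080695 (-1.27 ± 0.32) were lower. Zfp352 was 54.9 to 64.0 FPKM in control E2C and 11.2 to 28.0 FPKM in knockout E2C, then 31.2 and 34.1 FPKM in control L2C and 96.5 to 119 FPKM in knockout L2C. Its knockout libraries thus lay below the controls in E2C and above them in L2C, without overlap at either stage.

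**Figure D5:**
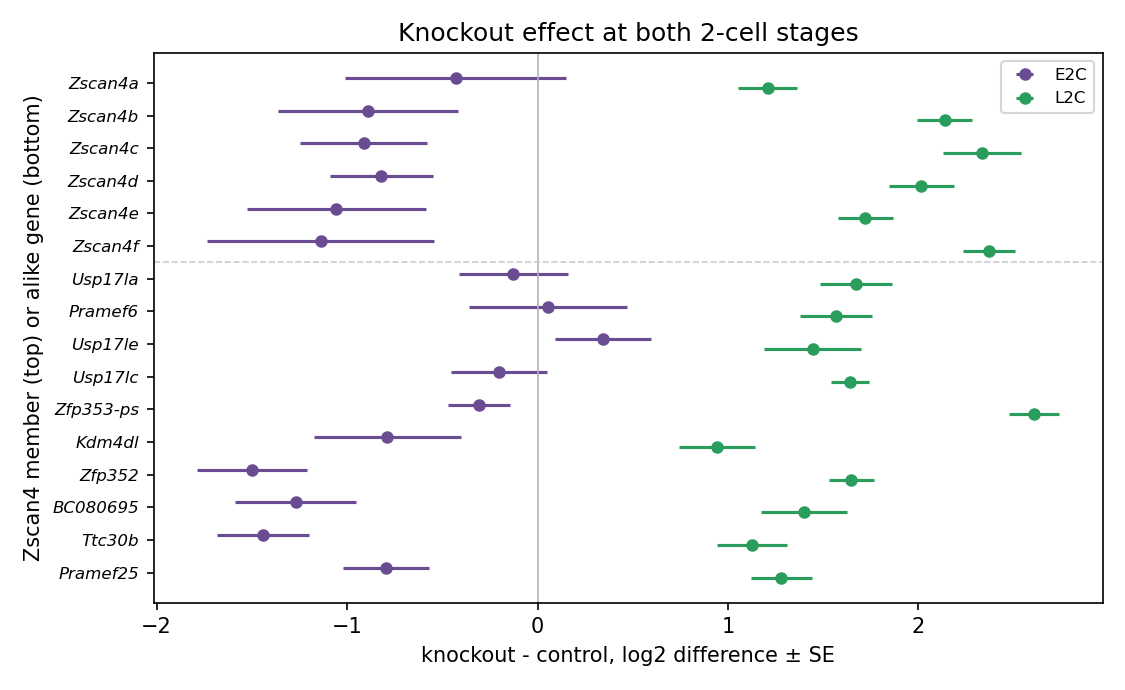
Knockout minus control difference on the log2(FPKM + 1) scale (x axis, bars for SE) in E2C (purple) and L2C (green) for the 6 Zscan4 members (top) and the 10 genes most alike (bottom). All 16 genes are above 0 in L2C, while in E2C the 6 members range from -1.14 to -0.43 and the others from -1.50 to 0.34.

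The known inputs of the family were then read from lists of related genes. Of 15 activators, 14 were in the table and tested, and 2 rose and 4 fell in knockout E2C, with 4 rising and 4 falling in L2C (list medians -0.22 and -0.14, beside 0.03 over all genes at both stages). Over all genes, 4.25% rose and 5.87% fell in knockout E2C, and 19% rose and 19.5% fell in L2C. Duxf3 and the Obox genes also belong to repeated families, and the split of their fragments is likewise uncertain. Duxf3 was 3.31 to 5.75 FPKM in control E2C and 19.2 to 27.5 FPKM in knockout E2C (2.05 ± 0.22, adjusted p 0.00179, limma), without overlap. In the same libraries the Zscan4 members were not higher. In L2C Duxf3 was 0.452 and 0.463 FPKM in controls and 1.197 to 2.45 FPKM in knockouts (0.93 ± 0.26, adjusted p 0.0245, limma), a call lost without control replicate 1 or 2 or knockout replicate 2 (adjusted p 0.112, 0.105 and 0.0594).

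Of the other activators, Obox7 and Dppa4 were lower from the oocyte on. Obox7, a homeobox gene of the Obox cluster, was 44.1 and 46.8 FPKM in control FGO and 10.9 to 18.3 FPKM in knockout FGO, and it was lower through E2C (-1.997 ± 0.15) and not in L2C (-0.11 ± 0.17). Dppa4, a chromatin protein that acts upstream of Dux, was lower at all 5 stages, in E2C 6.29 to 10.4 FPKM against 0.846 to 2.08 FPKM (-1.93 ± 0.27). Obox3 was 12.9 to 17.4 FPKM in control E2C and 0.0564 to 5.30 FPKM in knockout E2C (-2.33 ± 0.57, adjusted p 0.036, limma), a call lost without any 1 control replicate (adjusted p 0.0802 to 0.117) or knockout replicate 1 (0.05), and it overlapped in L2C. Among the activators called lower were also Nr5a2, in E2C (-0.62 ± 0.14) and L2C (-0.63 ± 0.18), and Dppa2 in L2C (-1.05 ± 0.25). The activators that rose beside Duxf3 were Nfya in E2C (1.26 ± 0.14), and Obox1 (1.41 ± 0.09), Obox2 (1.02 ± 0.15) and Obox5 (1.65 ± 0.09) in L2C. Leaving out 1 library at a time, the E2C count of activators was 2 or 3 higher and 2 to 4 lower, the 2 being without any 1 control replicate.

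The 30 other genes of the 2-cell programme showed the late rise in part. In E2C 1 of 29 tested rose and 6 fell (median -0.72, beside 0.03), against 4.25% and 5.87% of all genes. In L2C 15 of 30 rose and 6 fell (median 0.47), against 19% and 19.5% of all genes, so the falls in L2C were near that share. Usp17la, Usp17lc, Usp17le and Zfp352, given above among the most alike genes, are on this list and among those that rose in L2C. Eif4a3l1, a helicase-like gene, was 1.83 and 1.99 FPKM in control L2C and 25.9 to 38.1 FPKM in knockout L2C (3.41 ± 0.19), and BB287469 was 1.10 and 1.76 FPKM against 15.2 to 21.2 FPKM (2.94 ± 0.20). Pramel7 went the other way, 70.4 and 92.1 FPKM against 7.78 to 19.2 FPKM (-2.75 ± 0.32), and so did Fbxo15, an F-box gene, at 98.3 and 112 FPKM against 37.0 to 61.1 FPKM (-1.12 ± 0.19). Pramel7 (-2.51 ± 0.22) and Fbxo15 (-2.57 ± 0.21) were also lower in knockout E2C. Without 1 library at a time, the E2C count was 1 higher and 2 to 7 lower (2 without control replicate 1, 3 without control replicate 3 or knockout replicate 2, 4 without control replicate 2), and the L2C count 12 to 16 higher and 3 to 7 lower (3 without control replicate 2).

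Of known repressors of the 2-cell programme, 1 of 19 tested rose and 2 fell in E2C (4.25% and 5.87% of all genes), and 2 of 20 rose and 4 fell in L2C (19% and 19.5% of all genes), with list medians of 0.00 and -0.17. Hdac2, a histone deacetylase, was lower in knockout E2C (-0.72 ± 0.12) and higher in knockout L2C (0.98 ± 0.10). Hdac1, its paralog, was lower in E2C (-0.86 ± 0.21, adjusted p 0.0383, limma), which was lost without control replicate 1 or 2 or knockout replicate 2 or 3. Of the variant Polycomb complex that holds PCGF6, Max was higher (0.83 ± 0.12) and Mga lower (-0.79 ± 0.10) in L2C. L3mbtl2, on the same list, was also called lower there (-0.79 ± 0.18, adjusted p 0.0109, limma). Pcgf6 itself was lower without overlap but not called (-0.44 ± 0.17, adjusted p 0.0742, limma). The other repressors called lower in L2C were Trim28 (-0.64 ± 0.11) and Rif1 (-0.35 ± 0.11). Lin28a was the repressor that rose in E2C (0.63 ± 0.15).

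Genes tied to the reported functions of Zscan4 were read in the same way. Of 9 DNA methylation genes, 3 rose in E2C and 4 in L2C and none fell at either stage (medians 0.45 and 0.44), against 4.25% and 19% of all genes called higher. Those of L2C were Dnmt3a (1.26 ± 0.24) and Dnmt3l (0.98 ± 0.12) of de novo methylation, Uhrf1 (1.01 ± 0.12), the partner of DNMT1, and the oxidase gene Tet3 (0.79 ± 0.12). All 4 are RNAs stored in oocytes, at 53.5 FPKM or more in every control FGO library. In L2C they were higher, as were 6 of the 8 oocyte markers, whose part in this result was not tested. Dnmt3a was also called higher in knockout FGO (0.67 ± 0.11), L1C (0.52 ± 0.08) and E2C (0.96 ± 0.20), though not in MII. Tet3 was called higher in E2C as well (0.59 ± 0.13). Of the 8 oocyte markers, 0 were called in FGO and in MII, and 1 was called higher in L1C and in E2C. The E2C count of the DNA methylation genes fell to 0 without control replicate 1 or knockout replicate 2, and to 1 without control replicate 2 or 3 or knockout replicate 3.

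Of 20 telomere and recombination genes, 19 were tested, 1 rose and 1 fell in E2C, and 2 rose and 1 fell in L2C (medians -0.06 and 0.06, against 4.25% higher and 5.87% lower in E2C and 19% and 19.5% in L2C over all genes). Rad50, of the MRN complex at broken ends, and Blm, a helicase, were higher in L2C by 0.68 ± 0.13 and 0.51 ± 0.12, the call of Blm being lost without either control replicate (adjusted p 0.0687 and 0.058, limma). The gene that fell in L2C was Terf1 (-0.43 ± 0.13, adjusted p 0.035, limma). In E2C Mre11a, another MRN gene, was higher (0.86 ± 0.20) and the telomere-binding gene Pot1a lower (-0.79 ± 0.17). The Mre11a call was lost without any 1 library and that of Pot1a without any 1 of 5 of the 6.

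Zscan genes outside the Zscan4 cluster were read as well. Of 12 other Zscan genes 8 were tested in each 2-cell comparison, and 0 rose at either stage, with 1 falling in E2C and 2 in L2C (medians 0.06 and -0.54), against 5.87% and 19.5% of all genes called lower. Zscan5b was 89.5 and 90.3 FPKM in control L2C and 42.3 to 52.5 FPKM in knockout L2C (-0.96 ± 0.12), and was also lower in E2C (-1.67 ± 0.30, adjusted p 0.0134, limma), a call lost without 2 of the control libraries. Zscan12 was lower in L2C (-1.04 ± 0.25, adjusted p 0.0125, limma), which was lost without either control library.

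Genes lying among and beside the copies were read last, by a rule chosen after their values were seen. Of 44 other genes inside the cluster, 7 reached 1 FPKM in 2 of the 2-cell libraries, 5 could be tested in L2C and 1 rose, the pseudogene Gm45551 (1.67 ± 0.34, adjusted p 0.00614, limma). Of 56 genes in the 500 kb on each side, 2 could be tested in L2C and both rose. Nlrp4b, a gene of maternal RNA with mean levels of 142 FPKM in control FGO and 125 FPKM in knockout FGO, was 8.63 FPKM in control L2C and 19.4 FPKM in knockout L2C (1.07 ± 0.16). The other was Gm45379 (1.35 ± 0.33). In E2C 0 of the 5 genes inside and 0 of the 2 beside the cluster were called. Over all genes, 19% were called higher in L2C and 10.1% were called in E2C. These counts are small, and whether the region differs from other genes was not tested.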

How the data were processed

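RNA was measured in 26 total RNA libraries (SMART-Seq Stranded kit, per the labels) and 11 poly(A) libraries (SMART-Seq mRNA with Nextera XT, per the labels), in 16 groups taken from the labels. The authors deposited 1 table of FPKM per kind of library, so read depth is unknown. Trim Galore 0.6.6, STAR 2.7.9, StringTie 2.1.7 and mm10 are named, per the submitters' processing notes. How shared reads were divided is not given in the sources used here. In the poly(A) table, 1 deposited column held 1 other value, below 0, among its FPKM, and it was set to 0.

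Genes with at least 1 FPKM in 2 libraries of a fit were tested on log2(FPKM + 1) with limma 3.58.1 (R 4.3.3, eBayes with trend). Fits held the libraries of the stages compared. P-values were adjusted by Benjamini-Hochberg over all genes tested, with a threshold of 0.05. SE and intervals come from these fits. Fold changes on this scale understate those of low genes. Values were summed, and figures drawn, with Python 3.11.15, pandas 2.3.3, numpy 2.4.6 and matplotlib 3.10.9. Transcripts were aligned with Biopython 1.88, and identifiers were matched to GENCODE M21 (54349 of 55401 with the same version). The fits were tested on simulated data.

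The members and lists were chosen with earlier results of these data known. Named from each list were up to 4 genes with the largest difference among those called, without overlap, in E2C or L2C (predicted and clone-named models left out). A few further genes of the lists are named beside these, chosen after their values were seen. The 10 most alike genes have the highest Pearson correlation among those whose mean reached 5 FPKM in some group. Alternatives were another pseudocount, other filters, other scalings, the fit of all 26 libraries, no trend, the replicate number as a block, and leaving out each library. The sum of 9 copies and the list counts under each alternative were chosen after seeing the data.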

Additional observations from a re-analysis of the deposited data

Results flagged for a closer look

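The effect of the maternal knockout differed between E2C and L2C for 5 members by the test of the difference itself (limma, Benjamini-Hochberg adjusted p from 0.000806 to 0.0102). On the log2 scale the change was 3.51 for Zscan4f, 3.25 for Zscan4c, 3.03 for Zscan4b, 2.83 for Zscan4d and 2.78 for Zscan4e. Knockout libraries were higher in L2C in 3 of 3 cases for each of these genes, and in E2C they overlapped with the controls for all but Zscan4c, which was lower in 3 of 3. The E2C value rests in part on knockout replicate 2, which had the lowest level of every copy.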

How the results depend on the processing

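The call of 6 of 6 members higher in knockout L2C was the same under every alternative run. So was the count of 6 of 6 in E2C against L1C in both genotypes, which is a description. For Zscan4a, Zscan4b, Zscan4e and Zscan4f its direction was set by the minimum for a test, met only through E2C. In E2C, 0 of 6 were called, but 5 in the fit of all 26 libraries, and 0 to 1 without single libraries. From E2C to L2C in knockouts, the 1 call became 0 with a pseudocount of 0.1, no filter, TPM scaling, scaling without Gm23935, centring, no trend or the replicate block, and 0 to 2 without single libraries. The change of the knockout effect from E2C to L2C had 3 calls without a filter. Knockout L2C against control E2C had 0 calls without a filter, without the trend or with the block, 2 with centring, and 0 to 1 without single libraries. In MII, 1 member was called without a filter. Causes were not tested.

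Replicate numbers did not pair the libraries: correlations of same-numbered deviations were -0.09 to 0.17. With the number as a block, 1 member (Zscan4c) was called in L1C and 3 in the control change from E2C to L2C, against 0 and 5, the 2 lost being Zscan4b and Zscan4f (limma, adjusted p 0.0658 and 0.118).

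The sum of 9 copies gave -1.31 (FGO), -0.88 (MII), -0.72 (L1C) and 3.99 (control E2C against L1C), against -0.09, 0.26, 0.30 and 5.83 for the members. Without single libraries the FGO sum ranged from -0.67 to 0.50. Signs that turned belonged to differences that were not called. For Zscan4d in FGO the value was 0.057 with quantile normalization and -0.64 to 0.47 without single libraries. Without single libraries the ranges were -0.33 to 0.11 for Zscan4c in MII, -0.89 to 0.29 for Zscan4a and -0.60 to 0.36 for Zscan4-ps1 in E2C, and -0.90 to 0.28 for the change of the effect on Zscan4a from L1C to E2C. With a pseudocount of 0.1 that change was 0.61 for Zscan4b and 0.020 for Zscan4f. From E2C to L2C in knockouts Zscan4c was -0.10 with TPM scaling, -0.040 without Gm23935, -0.24 with centring and -0.40 to 0.33 without single libraries, Zscan4-ps2 -0.74 to 0.24 and Zscan4-ps3 -0.25 to 1.21. For knockout L2C against control E2C, Zscan4f was -0.012 with centring and -0.079 with the block, and without single libraries Zscan4a was -0.050 to 0.69, Zscan4b -0.54 to 0.046 and Zscan4f -0.082 to 0.36.

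Read depth limits are unknown, since FPKM keep no counts. TPM scaling moved the median of all genes in L2C from 0.03 to 0.15.

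The number of genes called over the whole table, the base of the shares printed beside the members, moved more. In E2C it was 1193, against 165 without a filter, 4407 in the fit of all 26 libraries, 682 with the block and 317 to 785 without control replicate 1, 2 or 3 or knockout replicate 1 or 2. In L2C it was 4893, against 3180 without a filter and 2878 or 2931 without a control library. In FGO it was 964, against 308 with a mean of at least 5 FPKM, 105 with the block and 15 or 41 without a control library. In MII it was 1364, against 882 without a filter, 555 with the higher minimum, 895 in the fit of all 26 libraries and 157 or 179 without a control library. In L1C it was 1657, against 762 without a filter, 1002 with the higher minimum and 238 or 251 without a control library. The change of the knockout effect had 43 calls from L1C to E2C (1 with the block, 710 in the fit of all 26 libraries) and 2346 from E2C to L2C (1334 and 4622). The block lowered the counts between stages to 2024 from 6238 and 2768 from 6082 (E2C against L1C, control and knockout), and to 3462 from 7674, 3076 from 6898 and 2726 from 6723 (L2C against E2C in control, in knockout, and knockout against control). The higher minimum lowered 4 of these, to 4082, 4436, 4090 and 3872 in the order control E2C against L1C, control L2C against E2C, knockout L2C against E2C, and knockout L2C against control E2C.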
